A study of Caenorhabditis elegans with 2 samples.

Results

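The genes asp-1 to asp-6 encode pepsin-like aspartyl proteases of Caenorhabditis elegans, and all 6 were taken by symbol from a table of 46739 genes. Aspartyl proteases of this fold cleave proteins with a pair of aspartate residues, are made as inactive precursors, and work best in acid. Cathepsin D, the vertebrate enzyme of the lysosome, belongs to the same fold. In the worm, such enzymes degrade proteins in lysosomes and in the lumen of the intestine, which is also the organ that makes yolk. ASP-3 and ASP-4 are known as executioners of necrotic death in worm neurons, and ASP-1 is known from intestinal cells.

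Gonads were dissected from adult hermaphrodites of the wild-type N2 strain and of the YBT7 strain, with 1 RNA library made per strain. The YBT7 strain carries deg-1(huj32) linc-20(huj2) hujCf1, which split the X chromosome at deg-1 and near linc-20 into an internal segment between these genes and a linear segment made of both ends. The study asked whether genes of the split X are transcribed in early meiotic stages, in which the intact X of hermaphrodites is silenced. The RNA came from whole gonads, which hold later stages too. One of the labels of the YBT7 sample also holds the words wild type, but its title and genotype name the mutant. The linc-20 gene, which the cut removes, had 4 counts against 0 in the mutant, too few to check the labels. Priming was at the poly(A) tail, and most counts therefore stem from the ends of transcripts. The raw counts sum to 2873065 in wild type and to 4525439 in YBT7, over 12356 and 14188 genes. They were divided by size factors of 0.816 and 1.22 to give normalized read counts.

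All 6 aspartyl protease genes stood higher in YBT7 gonads than in wild-type gonads. The fold ranged from 11.5 for asp-6 to 16.9 for asp-5, with a median log2 fold of 3.80. Together the 6 genes went from 380 raw counts in wild type to 7749 in YBT7, a 13.6-fold rise of the normalized count (interval 12.3 to 15.1). They held 0.0132% of the wild-type library and 0.171% of the YBT7 library. A gene was called higher under the rule of the study's methods, which asks for a mean normalized read count over 5 and a log2 fold that exceeds 1 plus 5 divided by the square root of the mean. By this rule all 6 were called, and so were 9.55% of the 8618 genes measured, meaning genes over that mean. Lower calls made up 1.25%. The 6 genes were chosen by their symbols with these counts and folds of YBT7 over wild type in view, so their values are a description. With 1 library per strain no p-value can be given. Intervals are exact 95% intervals for the counting of reads and leave out variation between animals. In bulk RNA of this kind, more cells of a type and more RNA per cell cannot be told apart.

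The first of the V-linked genes, asp-1, had 166 raw counts in the wild-type library against 3139 in the YBT7 library. The gene (WBGene00000214) lies on the minus strand of chromosome V from 19049123 to 19050825 in WBcel235, and the Ensembl annotation (release 115) draws it with 1 exon of 1191 bp and no UTR, where the table gives the gene a length of 1703 bp. In CPM (read counts scaled to a common library total) it went from 57.8 to 694. Its normalized read count was 12.6-fold higher (interval 10.8 to 14.8), a log2 fold of 3.66, where the rule asked for 1.13 at its mean. The gene has the narrowest interval of the 6, because it has the most counts in wild type.

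The asp-2 gene (WBGene00000215, chromosome V, plus strand, 9199680 to 9205128) encodes a protease named by its sequence. It had 26 raw counts in the wild-type library against 463 in the YBT7 library, or 9.05 and 102 CPM, and was 11.9-fold higher (7.998 to 18.4). Ensembl release 115 gives it 3 exons in a gene of 1658 bp, while the table gives the gene a length of 5449 bp. The innexin gene inx-10 overlaps its end on the opposite strand. The inx-10 counts were 10 against 19, a log2 fold of 0.34 that was not called.

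The neighbours asp-5 and asp-6 lie in a cluster of asp genes on chromosome V. The asp-5 gene (WBGene00000218, plus strand, 8272375 to 8274047, 4 exons) had 41 raw counts in the wild-type library against 1042 in the YBT7 library, 16.9-fold higher (12.4 to 23.8), which is the highest fold of the 6. The asp-6 gene (WBGene00000219, minus strand, 8267546 to 8268937, 3 exons) had 53 and 918 raw counts, 11.5-fold higher (8.75 to 15.5), which is the lowest. The ratio of their folds, 1.47, had an interval that takes in 1 (0.948 to 2.29).

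The X-linked pair, asp-3 and asp-4, encode the enzymes known from neuronal necrosis. The asp-3 gene (WBGene00000216, plus strand, 6791064 to 6792715, 4 exons) lies on the linear segment, 0.970 Mb to the left of deg-1. It had 79 raw counts in the wild-type library against 1813 in the YBT7 library, or 27.5 and 401 CPM, and was 15.3-fold higher (12.2 to 19.4). The asp-4 gene (WBGene00000217, minus strand, 13218977 to 13221469, 6 exons) lies on the internal segment, 5.44 Mb to the right of deg-1 and 3.29 Mb to the left of linc-20. It had 15 raw counts in the wild-type library against 374 in the YBT7 library, or 5.22 and 82.6 CPM, and was 16.6-fold higher (9.95 to 29.999). The wide interval follows from the 15 wild-type counts. Between the gene of the linear segment and that of the internal segment, the ratio of the folds was 0.920 (0.487 to 1.63). The gene R12H7.4, which overlaps the end of asp-4 on the opposite strand, had no count in either library.

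**Figure D1:**
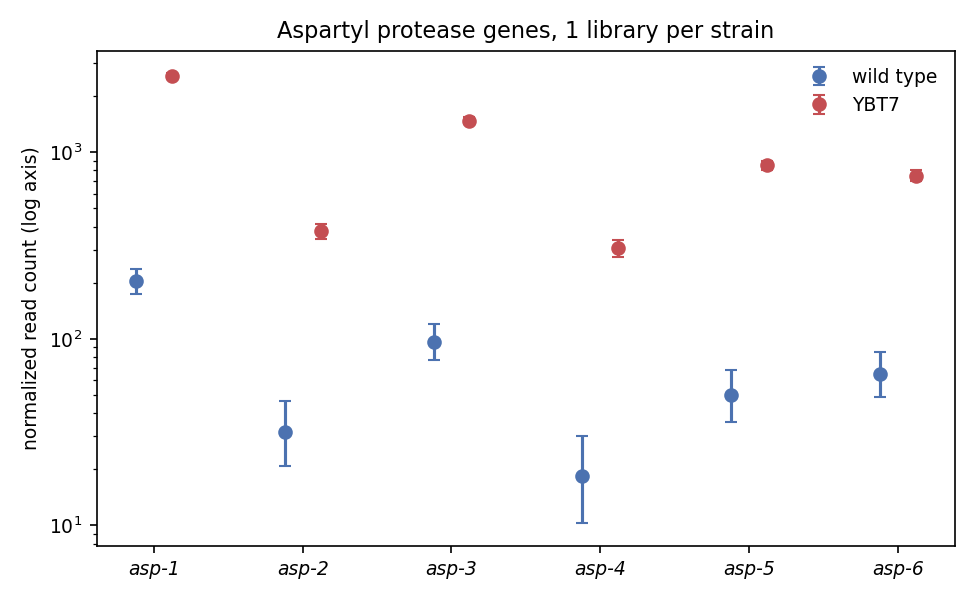
Normalized read count (log axis) of each aspartyl protease gene in the wild-type library and the YBT7 library, with exact 95% Poisson intervals for counting as bars. In every gene the YBT7 point lies above the wild-type interval, from 305 against 18.4 for asp-4 to 2563 against 203 for asp-1.

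The 6 genes kept nearly the same proportions to each other. Of their summed counts asp-1 held 43.7% in wild type (exact binomial interval 38.6 to 48.8%) and 40.5% in YBT7 (39.4 to 41.6%). The next share was that of asp-3, 20.8% in wild type (16.8 to 25.2%) and 23.4% in YBT7. The shares of asp-6 and asp-5 were 13.9% and 10.8% in wild type and 11.8% and 13.4% in YBT7. The lowest shares were those of asp-2, 6.84% and 5.97%, and of asp-4, 3.95% and 4.83%. Each share in YBT7 lay within the wild-type interval of the same gene. These shares do not depend on how the libraries were scaled.

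**Figure D2:**
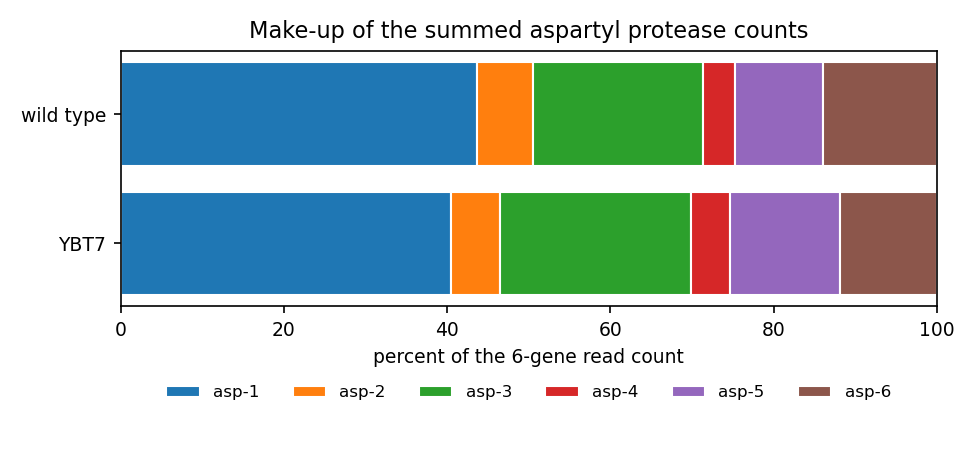
Share of each gene in the summed raw counts of asp-1 to asp-6, in percent, with 1 bar per library (380 counts in wild type and 7749 in YBT7). The segments of both bars have nearly the same widths, with asp-1 at 43.7% and 40.5%.

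Among the 15 pairs that the 6 genes form, the ratio of the folds had an interval that took in 1 in every pair. The largest ratio was the one between asp-5 and asp-6, 1.47. At these counts a difference in fold between members was therefore not detectable, and the intervals leave room for differences, up to 2.78 for the fold of asp-4 over that of asp-6 and down to 0.346 for asp-2 over asp-4. The sums of the members on V and on X did not differ detectably in fold either, and an effect of the chromosome was not tested. The 4 genes on chromosome V rose 12.96-fold as a sum (11.5 to 14.7), from 286 to 5562 raw counts, and the 2 genes on X rose 15.5-fold (12.6 to 19.3), from 94 to 2187. The ratio of the rise on X to that on V was 1.20 (0.939 to 1.54).

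To set the levels of the genes side by side, normalized read counts were divided by the length of the annotated exons. In wild type the order by normalized read count per kb of exon was asp-1 at 171, asp-3 at 66.2, asp-6 at 50.9, asp-5 at 40.5, asp-2 at 23.1 and asp-4 at 12.6. In YBT7 it was asp-1 at 2152, asp-3 at 1013, asp-5 at 686, asp-6 at 588, asp-2 at 274 and asp-4 at 209. The wild-type counting intervals of asp-1 and asp-3 did not overlap, but those of every other pair of neighbours in the order did, for example asp-6 (38.1 to 66.6) and asp-5 (29.1 to 54.9). In YBT7 no neighbouring pair overlapped in its intervals. The order of asp-5 and asp-6 thus turned between the libraries, within the counting error of wild type. Counts from transcript ends do not grow with length, and the exon length of asp-1 holds no UTR, so this order is approximate.

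By size of fold the members lay high among genes with such means over both libraries, a comparison that the choice of the 6 genes already fixes. In wild type only asp-1, at a normalized read count of 203, lay above the mean of asp-4, 162. The asp-2 to asp-6 genes reached that limit only through YBT7, so the genes compared are not matched by wild-type level. Of the 3632 genes with a mean normalized read count at or above that of asp-4, the least abundant member, 3.39% were called higher. On X this share was 33.3% of 108 genes and on chromosome V 4.78% of 544 genes. The median log2 fold of the 3632 genes was -0.12. Apart from the members, 18 of these genes had a log2 fold above that of asp-5, and 21 lay in the range of the members, from 3.53 to 4.08.

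Families among those 21 genes were read off after their values were seen and were not compared with the share of such families among all genes. The 21 genes include 4 vitellogenin genes, vit-1, vit-2, vit-3 and vit-6, whose products are yolk proteins, and 7 collagen genes, among them col-119 and col-181. They also include 3 lysozyme genes, lys-1, lys-7 and lys-8, and the saposin-like gene spp-3. By chromosome, 5 of the 21 are on X and 7 on V. The 5 genes with a log2 fold nearest to the median of the members were C10G8.4 at a distance of 0.025, col-101 at 0.025, vit-3 at 0.034, the metallothionein gene mtl-2 at 0.050 and F54D5.3 at 0.051. With 2 libraries this likeness is that of a single fold and not of a profile. The vit-3 gene had 374 raw counts against 7607, and mtl-2 had 75 and 1618. Collagen and vitellogenin genes are close in sequence to others of their families, so their single values are uncertain.

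**Figure D3:**
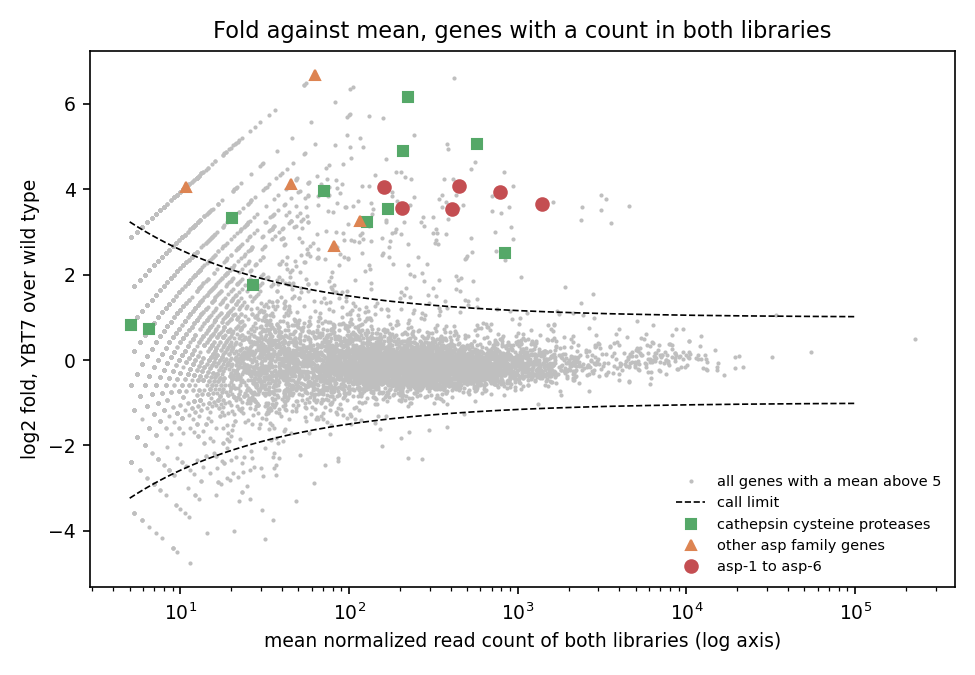
Log2 fold of YBT7 over wild type against the mean normalized read count of both libraries (log axis), for genes with a mean above 5 and a count in each library. Dashed lines are the call limits, grey points are all genes and coloured marks are asp-1 to asp-6, the other asp genes and the cathepsin cysteine protease genes. The 6 members lie between 3.53 and 4.08 over means from 162 to 1383, far above the upper limit.

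The table holds 19 genes with an asp symbol, 15 of them on V, 3 on X and 1 on IV. Of the 13 beyond the members, 6 had a mean normalized read count above 5, and all 6 were called higher. The background for such calls is 9.55% of measured genes. In wild type only asp-10 and asp-13 stood above a normalized read count of 5. The asp-8, asp-12, asp-14 and asp-17 genes passed the minimum mean only through their YBT7 counts, so their calls add no support. The asp-10 gene had 18 raw counts in the wild-type library against 257 in the YBT7 library, 9.52-fold higher (5.90 to 16.3). The asp-13 gene had 18 and 171, 6.33-fold higher (3.89 to 10.9). The X-linked asp-14 gene had 4 and 105, 17.5-fold higher (6.64 to 65.4), but it overlaps fah-1 on the same strand, and reads in the shared part are lost in default counting. Lower still in wild type were asp-12 with 1 count against 153 (ratio 102, interval 18.04 to 4055) and asp-8 with 1 against 25 (ratio 16.7, 2.73 to 684). The asp-17 gene had none against 18, 4-fold higher against a floor of 3 counts (lower limit from counting 2.93). Its call rests on the absence of a wild-type count, where the rule asked for a log2 fold of 2.84 at its mean. With asp-17 at that floor, the median log2 fold of these 6 genes was 3.65, beside -0.030 for all measured genes. This median rests mostly on genes that passed only through YBT7.

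The other 7 asp genes were at or near 0. In both libraries asp-7, asp-9, asp-15, asp-16 and asp-18 had no count, and asp-11 and asp-19 had 1 count in YBT7. A count of 0 allows a level of up to 1.04 CPM in the wild-type and 0.663 CPM in the YBT7 library.

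**Figure D4:**
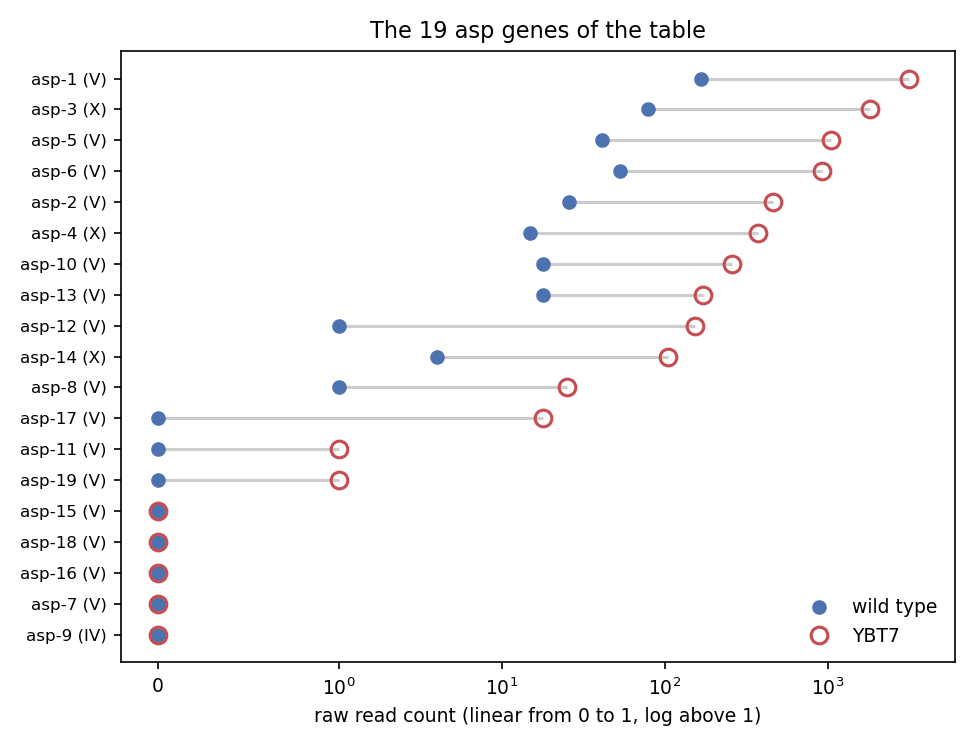
Raw read count of the 19 asp genes in the wild-type library (filled) and in the YBT7 library (open), on an axis that is linear from 0 to 1 and logarithmic above, with the chromosome in brackets. The 6 members head the plot, from 374 to 3139 counts in YBT7, and 5 genes have no count in either library.

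Within the cluster on chromosome V the levels differed between neighbours. The order along the chromosome is asp-6, asp-12, asp-5 and asp-11, with 316, 316 and 305 bp between them in the coordinates of the table. The asp-12 gene, between the 2 members, had 1 raw count in wild type where asp-6 had 53 and asp-5 had 41. The asp-11 gene next to asp-5 had 0 counts against 1. Elsewhere on chromosome V, asp-15 lies 4269 bp from asp-1 and had no count in either library. Genes that lie close together in families of this kind can be alike in sequence, and reads that fit several of them may be lost or misplaced. Sequence identity between them was not analysed here.

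Within 10 kb of the members, 9 genes outside the family had a mean above 5, and 1 of them was called higher, which is near the background of 9.55%. This gene, bgal-2, a gene related to beta-galactosidases that was named after its value was seen, lies near asp-3 and had 0 raw counts against 21. With no wild-type count, its call was fixed once its mean was above 5. Near asp-4, the Skp1-related gene skr-19 had 4 and 26 counts, a log2 fold of 2.12 that was not called. Apart from bgal-2, log2 folds ran from -0.54 to 2.12. Around asp-1, asp-5 and asp-6 no other gene outside the family reached the mean of 5.

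Other proteases of the lysosome and the gut were higher too. Of 11 measured genes of cathepsin cysteine proteases 8 were called higher and none lower, beside 9.55% and 1.25% of all measured genes, with a median log2 fold of 3.32 beside -0.030 for all measured genes. Of these, cpr-1, which encodes a gut protease related to cathepsin B, had 5 raw counts against 537, 71.6-fold higher (lower limit 30.5). The cathepsin B-like gene cpr-6, on the linear segment as asp-3 is, had 27 and 1357, and F57F5.1, also called cpr-9, had 11 and 494. The cathepsin L gene cpl-1, which acts in yolk processing and in embryos, had 208 counts against 1759, 5.64-fold higher (lower limit 4.88). The aspartyl proteases lie between these genes in fold. The cathepsin list ran from a log2 fold of 0.74 to 6.16, where the 6 members ran from 3.53 to 4.08. Among the 8 called genes, cpz-2, with 3 raw counts against 45, passed the minimum mean only through YBT7, so its call adds no support.

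Soluble hydrolases of the lysosome that are not proteases were called higher in 10 of 17 measured genes and lower in none, beside 9.55% and 1.25% of all measured genes. The wild-type library held no count for 4 of these genes, asm-3, gba-1, lipl-1 and lipl-2, 1 count for gba-3 and 2 for pho-1. All of these passed the minimum mean only through YBT7, and their calls add no support. The median log2 fold of the 17 measured genes was 2.62 with genes without a wild-type count set to the floor. The lipase gene lipl-5 had 30 raw counts against 849, 18.9-fold higher (lower limit 13.1). The deoxyribonuclease gene nuc-1, which degrades DNA of dead cells, lies on the internal segment and had 5 and 93 counts, 12.4-fold higher. The acid ceramidase gene asah-1 was 8-fold higher and the glucocerebrosidase gene gba-4 was 6.13-fold higher.

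Genes of the lysosomal membrane and of lysosome-related organelles were called in none of 15 measured members in either direction, and their median log2 fold was -0.22. With 9.55% of all measured genes called higher and 1.25% called lower, a list of 15 can lack calls. The lysosomal membrane protein gene lmp-1 had 759 raw counts against 827, a log2 fold of -0.46. The mucolipin gene cup-5 stood at -0.54, the cystinosin gene ctns-1 at -0.22 and the small GTPase gene rab-7 at 0.52. The vacuolar ATPase, the proton pump that makes the lumen of lysosomes acid and so lets aspartyl proteases work, had 2 of 21 measured genes called higher, a share near the 9.55% of all measured genes, with a median of 0.28. The called genes were vha-6, the subunit gene of the intestine, with 15 raw counts against 181 (8.04-fold, lower limit 4.75), and vha-3, 2.75-fold higher, which is close in sequence to vha-2, so that reads could be miscounted between them. The widely used vha-2 and vha-9 stood at log2 folds of 0.29 and 0.25.

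A list of calpain and calcium store genes, written for the necrosis pathway of ASP-3 and ASP-4, had no call among 9 measured genes (median log2 fold 0.030). Its calpain genes were taken as a family, so not every gene in it need act in necrosis. With 9.55% of all measured genes called higher and 1.25% called lower, so short a list can lack calls, and its count does not set it apart from the background. The calpain gene clp-1 stood at 0.030 and clp-7 at -0.44. The calreticulin gene crt-1, a calcium store protein of the endoplasmic reticulum, had 1971 raw counts against 2712, a log2 fold of -0.12, and the calnexin gene cnx-1 stood at -0.069. Other aspartyl proteases, which cut within the membrane or resemble retroviral proteases, were called in none of 6 measured genes, too few to differ from that background, with a median of -0.15. Among them were the presenilin gene hop-1 at 0.020, the signal peptide peptidase genes imp-1 at -0.52 and imp-2 at 0.32, and C01G5.6, also called ddi-1, at -0.21.

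**Figure D5:**
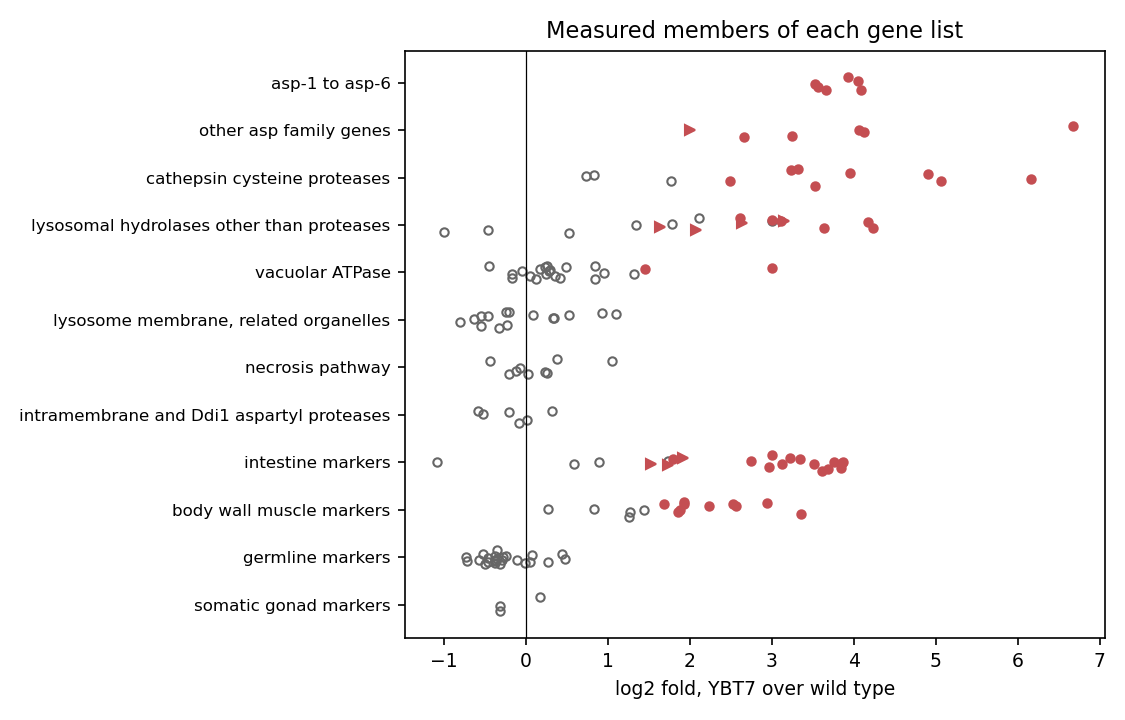
Log2 fold of YBT7 over wild type for the measured genes of each list, 1 mark per gene. Filled marks are called genes, open marks are not called, and triangles are genes with no wild-type count, drawn at their fold against the floor of 3 counts. The 6 members lie from 3.53 to 4.08, on both sides of the highest intestine marker at 3.87, while genes of the lysosomal membrane list and the necrosis list lie around 0.

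Markers of the intestine were higher in the same library as the aspartyl protease genes. Of 21 measured intestine markers 17 were called higher and none lower, where 9.55% of all measured genes were called higher. Of these calls 3 add no support, because the genes, ges-1 among them, had no wild-type count and passed only through YBT7. The summed raw counts of the markers went from 2925 to 49614, 11.3-fold in normalized counts (10.9 to 11.7). The defining regulator gene of the intestine, elt-2, had 0 raw counts against 11, at a mean below 5, so it was not among the measured markers. The gut esterase gene ges-1 had 0 and 15. The 4 measured markers not called include eps-8, with 24 raw counts in wild type against 17 in YBT7. The intestinal actin gene act-5 had 68 and 685. In wild type 5 of the 28 intestine markers found among the counted genes had no count. The yolk protein genes vit-6 and vit-4 were 12.2-fold and 9.32-fold higher.

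Set against the summed markers, the members rose more, by a ratio that depended on the vitellogenins. These held 43404 of the 49614 marker counts in YBT7. Single measured markers with a count in both libraries ran from a log2 fold of -1.08 to 3.87, and the intervals below hold counting error only. The summed members came to 12.99 raw counts per 100 counts of intestine markers in wild type and to 15.6 in YBT7, and their rise was 1.20 times that of the markers (1.08 to 1.34). Against the vitellogenins alone the ratio was 1.13 (1.02 to 1.27). Against the intestine markers without vitellogenins, which went from 510 to 6210 counts, it was 1.67 (1.46 to 1.93).

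Body wall muscle markers were called higher in 10 of 15 measured genes, again beside 9.55% of all measured genes, from 1408 to 9436 raw counts in all, 4.47-fold in normalized counts, with pat-10, a troponin C gene, at 5.89-fold. Hypodermis markers were called higher in 3 of 7 measured genes, beside the same 9.55%, from 462 to 7269 counts in all. The 3 called were the collagen genes col-19, col-119 and col-140, of which col-119 had 300 and 5403. The other 4 measured genes were not called, and 3 listed genes had no count in either library. Neuron markers were called higher in 2 of 9 measured genes, from 1130 to 1980 counts in all, beside the same 9.55%. None of 5 pharynx markers was called, too few to differ from that background. Coelomocyte markers went from 0 to 22 counts in all, with no gene above the mean of 5. Sperm markers were called lower in 7 of 10 measured genes, where 1.25% of all measured genes were, from 281 to 98 counts. Of these calls those of gsp-4, ssp-9, ssp-10 and ssp-16 add no support, because the genes passed the minimum mean only through wild type. Germline markers fit the labelled tissue and hold 48714 counts in wild type and 63754 in YBT7. Among 24 of them no call was made (median log2 fold -0.35), beside 9.55% called higher and 1.25% called lower of all measured genes. None of 3 measured somatic gonad markers was called, too few to differ from that background. The part of any of these tissues in the aspartyl protease counts was not tested.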

How the data were processed

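The authors deposited raw read counts per gene for 1 wild-type and 1 YBT7 gonad library. Trimming was with cutadapt (version 1.12), alignment to WBcel235 was with TopHat2 (version 2.1.1) and counting with HTSeq (version 0.6.0) was at default settings, which drops reads that fit several genes. A molecular identifier was in the primer, but the sources used here do not say that identifiers were collapsed, so counting intervals may be too narrow. The deposited normalized values, log2 fold changes and calls of the authors, made with DESeq2 (version 1.12.4), were not used.

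Size factors were medians of ratios over 10603 genes with a count in both libraries and at least 3 counts in all. A floor of 3 counts stands for a count of 0 in folds, medians and CPM limits, but not in the calls. A gene with no wild-type count and a mean above 5 was therefore always called higher. Fold intervals are conditional binomial, and ratios of folds conditional odds ratios. The replicate is the library, with 1 per strain, so no test was run.

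The 6 members, the gene lists and the rules were chosen with earlier results of these data known. Lists were written from general knowledge. Named are the 6 members, up to 4 genes of each list (3 of marker lists) by the mean normalized read count with called ones first, and the 5 genes nearest in fold. Genes named outside this rule were picked by position, symbol, function or value after values were seen. They are the rest of the asp family, elt-2, ges-1, act-5, eps-8, neighbours and genes in the members' range. Protease and hydrolase genes with few wild-type counts, and sperm markers with few YBT7 counts, were picked in the same way. Apart from those sperm markers, the germline, neuron, pharynx, sperm and somatic gonad lists are given as counts. Lengths and exons were those of Ensembl (release 115, WBcel235). Simulated counts were used to check the calling rule and the intervals.

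As alternatives, libraries were scaled by the TMM or upper quartile method of edgeR (version 4.0.16), or by total counts; also tried were autosomal size factors, no count filter, a pseudocount of 1, thinned YBT7 counts, totals without intestine markers and members, fixed fold limits and higher minimum means. Software was R 4.3.3, Python 3.11.15, scipy 1.17.1, numpy 2.4.6 and pandas 2.3.3.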

Additional observations from a re-analysis of the deposited data

How the results depend on the processing

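All 6 members remained called higher under each of the scaling, filter, pseudocount and thinning alternatives and with fixed limits of 2-fold, 4-fold and 8-fold. Over these alternatives their log2 folds ran from 3.46 to 4.15, and the median of the members from 3.73 to 3.83. Scaling by total counts moved every log2 fold by -0.071. The count of neuron markers called higher went from 2 to 1 with total counts, with a pseudocount of 1, with thinned YBT7 counts and with totals that leave out the intestine markers and members. The share of all genes called higher was 9.55% at a mean above 5, 6.89% at a mean above 20 and 4.88% at a mean above 50, where low genes no longer enter. Counts of calls in the other lists stayed within 1.5 times of their values. No replicate could be left out, since each strain has 1 library. No paired analysis was possible because each strain has 1 library. Depth limits the smaller members: asp-4 rests on 15 wild-type counts, and the intervals hold counting error only.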
